A study of Mus musculus with 8 samples.

Results

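Small RNA of control hepatocytes was compared with that of the extracellular vesicles (EVs) which the same line released into its medium. The cells belonged to the non-tumorigenic mouse hepatocyte line 3A and were infected with a retrovirus carrying a scrambled shRNA and selected with puromycin (shCTR). EVs were collected by ultracentrifugation from medium that shCTR cells had conditioned for 72 h, with serum depleted of EVs, and medium that had not met cells was not analysed here. There were 2 biological replicates of cell shCTR and 2 of EV shCTR among the 8 libraries of the series, the other 4 being the same compartments of shPCBP2 cells. A synthetic nematode miRNA, cel-miR-39-3p, was added to the RNA as a spike-in. All mouse rows of the count table were taken, and 645 of 1978 mature miRNAs had at least 1 read in the 4 shCTR libraries. The test took 180 of them, those read in 2 or more of the cell libraries and 2 or more of the EV libraries of the whole series.

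A miRNA hairpin is cut by Drosha and Dicer into a duplex, and 1 arm of the duplex (5p or 3p) is usually loaded into Argonaute while the opposite arm is degraded. The loaded arm finds its targets through the seed, bases 2 to 8. Cells also release miRNAs in EVs, and RNA-binding proteins are known to hold some miRNAs in the cell or to sort others into vesicles. The comparison asks which miRNAs and arms take a larger or smaller part of the EV miRNAs than of the cell miRNAs.

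The label of the cells was read against miRNAs known from liver. miR-122-5p, the most abundant miRNA of adult hepatocytes, reached only 35.7 and 41.5 counts for each 1000000 mouse miRNA counts (CPM) in the cell libraries. miR-194-5p, a liver and gut miRNA transcribed with miR-192, had 26918 and 23945 CPM, and miR-192-5p had 1611 and 1134 CPM. miR-148a-3p and miR-101a-3p were at most 6.44 CPM in either cell library. The 3A cells thus held miR-194-5p at a high share, and the miRNAs that define adult hepatocytes were at low shares.

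The sequences on which the comparison turns are given first, from RefSeq with the GRCm38.p6 build, with the seed in capitals. Mature sequences were found for 156 of the 180 tested miRNAs. The following miRNAs took a larger share in EVs. miR-223-3p, miR-451a, miR-127-3p, miR-379-5p and miR-199a-3p were rare in or absent from the cells, whereas miR-191-5p, miR-16-5p, miR-15b-5p and miR-26a-5p were abundant in both compartments. miR-16-5p and miR-15b-5p share the seed AGCAGCA.
miR-223-3p: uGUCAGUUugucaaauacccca
miR-451a: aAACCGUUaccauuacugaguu
miR-127-3p: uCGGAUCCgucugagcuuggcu
miR-379-5p: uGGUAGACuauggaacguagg
miR-199a-3p: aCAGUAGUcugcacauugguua
miR-191-5p: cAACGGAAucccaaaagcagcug
miR-16-5p: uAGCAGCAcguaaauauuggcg
miR-15b-5p: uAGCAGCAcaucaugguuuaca
miR-26a-5p: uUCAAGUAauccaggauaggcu

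The next miRNAs took a smaller share in EVs. The first of them had the lowest ratio among those read in every library, and the others each took a large share of the cell counts. miR-27a-3p and miR-27b-3p share the seed UCACAGU and differ by a single base, so reads of one may be counted on the other, and let-7b-5p stands for the let-7 family with the seed GAGGUAG.
miR-872-5p: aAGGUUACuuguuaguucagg
miR-21a-5p: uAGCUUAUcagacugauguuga
miR-24-3p: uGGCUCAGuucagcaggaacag
miR-27a-3p: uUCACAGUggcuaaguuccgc
miR-27b-3p: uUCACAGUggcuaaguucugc
miR-130a-3p: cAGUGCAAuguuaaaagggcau
let-7b-5p: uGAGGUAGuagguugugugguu

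Mouse miRNAs received 12732173 and 11698300 counts in the cell libraries and 687592 and 553556 counts in the EV libraries. The spike-in took 58.3% and 57.4% of the counts of the cell libraries and 97.6% and 97.9% of those of the EV libraries. For every 1000 spike-in reads there were therefore 714 and 743 mouse miRNA reads in cells and 24.8 and 21.3 in EVs. The level of a miRNA relative to the spike-in is a level per sample, and fewer EVs and less miRNA per EV cannot be told apart. Over the 141 miRNAs read in all 4 libraries, replicates differed by a median of 0.15 on the log2 scale in cells and 0.31 in EVs. The log2 CPM of the replicates correlated with r = 0.99 in cells and 0.91 in EVs, and the means of the compartments with r = 0.58, a description across 141 miRNAs that are not independent replicates.

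As a level, most miRNAs were lower in EVs and few were higher. Of the 180 miRNAs tested, 107 (59.4%) were lower and 12 (6.67%) were higher in EVs at an adjusted p under 0.05 (quasi-likelihood F test of edgeR, Benjamini-Hochberg adjustment), and the median log2 EV/cell ratio was -4.93. The 12 higher miRNAs were miR-486a-5p and miR-486b-5p, miR-150-5p, miR-223-3p, miR-127-3p, miR-369-3p, miR-379-5p, miR-143-3p, miR-145a-5p, miR-199a-3p, miR-199b-3p and miR-214-3p. The log2 level ratio was 6.69 (standard error 0.34) for miR-486a-5p, 5.51 (0.79) for miR-150-5p, 5.49 (1.16) for miR-127-3p and 2.59 (0.81) for miR-199a-3p. The number of higher levels was 5 without cell shCTR replicate 2 and 7 without EV shCTR replicate 1. TMM factors, which take out a shift shared by most miRNAs, gave 42 higher and 40 lower in place of 12 and 107.

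As a composition, in which each library is scaled to its total of mouse miRNA counts, changes went both ways. By the same edgeR test at the same threshold, 43 of 180 miRNAs (23.9%) took a larger share in EVs and 32 (17.8%) a smaller share, and the median log2 ratio of all tested miRNAs was 0.06. The 43 made up 20.3% and 19.5% of the counts of the cell libraries but 50.8% and 51.8% of those of the EV libraries. The 32 made up 56.1% and 55.9% in cells and 22.9% and 23.5% in EVs. All 32 were also lower as a level, whereas of the 43 only 12 were higher as a level, 14 were lower and 17 passed in neither direction. Reads in all 4 shCTR libraries were held by 39 of the 43 and 30 of the 32. Among the 32, miR-345-3p and miR-328-3p had no read in EV shCTR and entered the test through EV shPCBP2 reads. They could only be called lower, so the direction of these calls was fixed by the filter.

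**Figure D1:**
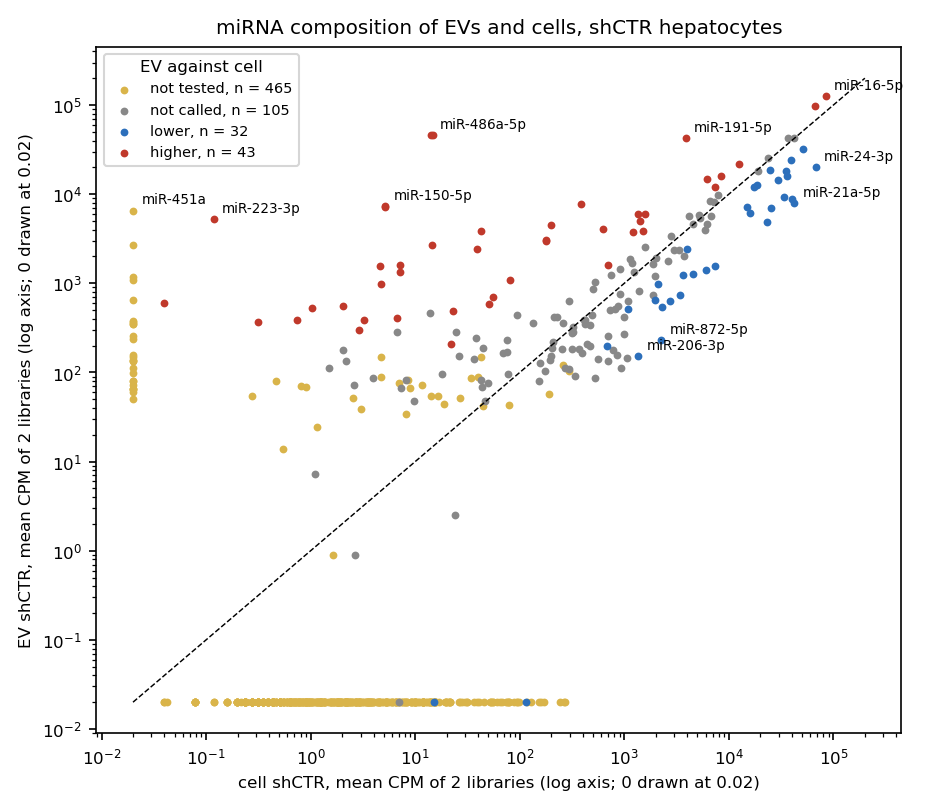
Mean CPM of each miRNA in the 2 EV shCTR libraries (vertical, log axis) against that in the 2 cell shCTR libraries (horizontal, log axis), with the call of the composition test in colour and equal values on the dashed line; a mean of 0 is drawn at 0.02. The 43 red points of higher share lie above the line and include many miRNAs rare in cells, the 32 blue points of lower share lie mostly among abundant cell miRNAs, and the row at the bottom holds the miRNAs with no EV read.

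The most abundant miRNA of both compartments was miR-16-5p, which represses cell-cycle and survival genes. It had 86582 and 81880 CPM in cells and 127628 and 123135 CPM in EVs, and its share rose in EVs by 0.57 on the log2 scale (standard error 0.09, adjusted p = 0.00291, edgeR). miR-31-5p was next in EVs, with 69620 and 63704 CPM in cells and 92215 and 104943 CPM in EVs. For both miRNAs the EV libraries were above the cell libraries with no overlap, as for 69 of the 180 tested (38.3%). Neither passed the test with median-of-ratios factors, where the log2 ratios were 0.36 and 0.35, and miR-16-5p did not pass with TMM factors either (0.36). miR-191-5p, encoded on the plus strand at chr9:108568325-108568347 in an exon of 4833445I07Rik, changed far more. It had 4244 and 3504 CPM in cells and 42509 and 43170 CPM in EVs, a log2 ratio of 3.47 (standard error 0.15, adjusted p = 1.98e-05, edgeR). Its mean share of all mouse miRNA counts was 0.387% in cells and 4.28% in EVs. As a level miR-191-5p was still lower in EVs, with a log2 ratio of -1.52 (standard error 0.25).

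Other miRNAs with well over 10 reads in every library also took a larger share in EVs. miR-99a-5p, from an intron of Mir99ahg, had 234 and 162 CPM in cells and 4043 and 5000 CPM in EVs (log2 ratio 4.51, standard error 0.28). miR-10b-5p, from the Hoxd cluster, had 181 and 178 CPM in cells and 2880 and 3138 CPM in EVs (log2 ratio 4.07, standard error 0.42). miR-423-5p had 390 and 380 CPM in cells and 8313 and 7271 CPM in EVs (log2 ratio 4.34, standard error 0.26). For all of these the EV libraries lay above the cell libraries by far more than the replicates differed. miR-320-3p, which is made without Drosha, had a log2 ratio of 2.69 (standard error 0.38), and miR-92a-3p of the miR-17 to miR-92 cluster had 2.16 (standard error 0.19). miR-26a-5p and miR-26b-5p, which share a seed, had log2 ratios of 0.78 (standard error 0.09) and 0.92 (standard error 0.12).

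Very high ratios were seen for miRNAs known from blood and mesenchymal cells and for the imprinted Dlk1-Dio3 cluster. miR-486a-5p, abundant in red blood cells, had 15.2 and 13.2 CPM in cells and 44572 and 48225 CPM in EVs, a log2 ratio of 11.67 (standard error 0.16). The product of the neighbouring copy, miR-486b-5p, had similar counts, with 210 and 155 in cells and 30824 and 26358 in EVs, and since the copies share reads the value of each is uncertain. miR-150-5p, a miRNA of mature lymphocytes, had 87 and 41 counts in cells and 5575 and 3658 counts in EVs, a log2 ratio of 10.47 (standard error 0.67). These EV counts exceeded those of the cells although the EV libraries held far fewer mouse reads. miR-223-3p, a myeloid miRNA on the plus strand at chrX:96242884-96242905 in an exon of F630028O10Rik, had 3 and 0 counts in cells and 3883 and 2673 counts in EVs. The pooled ratio of its CPM was 43016, with a 95% exact interval of 14713 to 208641 that covers counting error only (adjusted p = 0.000153, edgeR).

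miR-127-3p, from the Dlk1-Dio3 cluster on the plus strand at chr12:109592888-109592909, had 117 and 13 counts in cells and 5714 and 3305 counts in EVs (log2 ratio 10.43, standard error 1.16). miR-369-3p of the same cluster had 93 and 22 counts in cells and 768 and 1100 counts in EVs (log2 ratio 8.39, standard error 0.98). For both, cell replicate 1 held several times more reads than replicate 2, and both EV libraries were still far above either. miR-379-5p had a single read in the cells and 475 and 282 counts in EVs, a pooled ratio of 14901 with a counting interval of 2666 to 589310. The smooth muscle miRNAs miR-143-3p and miR-145a-5p had log2 ratios of 7.78 (standard error 0.90) and 8.98 (standard error 1.12). The mesenchymal miR-214-3p, from the Dnm3os transcript, had 8.10 (standard error 1.04), and the endothelial miR-126a-3p, from an exon of Egfl7, had 4.09 (standard error 0.23). miR-199a-3p and miR-199b-3p are identical in sequence, and their counts cannot be assigned to a gene. The counts of miR-199a-3p, with 208 and 149 in cells and 2475 and 1000 in EVs, were about 2 times those of miR-199b-3p in each library.

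**Figure D2:**
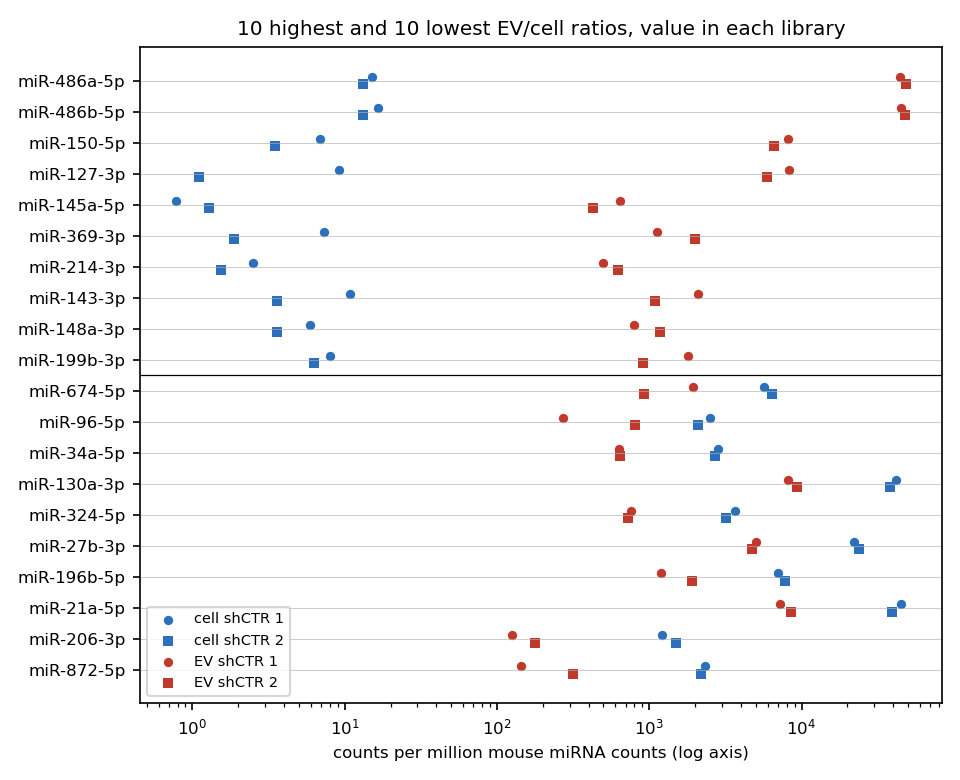
CPM in each of the 4 shCTR libraries (horizontal, log axis) for the 10 miRNAs with the highest and the 10 with the lowest log2 EV/cell ratio among those with an adjusted p under 0.05 and reads in all 4 libraries. Above the line the EV points (red) lie far to the right of the cell points (blue), and below it they lie to the left, from miR-674-5p with 1926 and 925 CPM in EVs down to miR-872-5p with 144 and 318 CPM.

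The lists of cell type markers were read as wholes. They were chosen with earlier results of these data known, so their overlap with the calls is a description. Over all 180 tested miRNAs 23.9% had a higher share, 17.8% a lower share and 6.67% a higher level. The erythroid list (miR-451a, both copies of miR-486 and both arms of miR-144) summed to 31.7 and 26.5 CPM in cells and 96300 and 102709 CPM in EVs, and 2 of 2 tested members were higher. In the leukocyte list (miR-223-3p, miR-150-5p and both arms of miR-142a), 2 of 2 tested members were higher, and the sums were 7.07 and 3.50 CPM in cells and 17023 and 13738 CPM in EVs. In both lists each EV library was far above each cell library. The endothelial miR-126a arms were both higher, with sums of 213 and 228 CPM in cells and 4891 and 8805 CPM in EVs. All 4 tested members of the fibroblast or smooth muscle list were higher, with sums of 30.5 and 22.2 CPM in cells and 6978 and 3944 CPM in EVs. In the cells miR-451a, miR-144-3p and both arms of miR-142a were at 0. Of the 26 miRNAs of the Dlk1-Dio3 list with a read only 5 were tested, and all 5 were higher. The sums of that list were 21.3 and 2.99 CPM in cells and 16943 and 14141 CPM in EVs. Together these lists held 15 of the 43 miRNAs of higher share, none of the 32 of lower share, and 11 of the 12 of higher level, the twelfth being miR-199b-3p. They took 0.0304% and 0.0283% of the cell counts and 14.2% and 14.3% of the EV counts. The other 28 miRNAs of higher share took 20.3% and 19.5% of the cell counts and 38.2% and 38.9% of the EV counts. With the lists left out of the totals, an alternative chosen after seeing the data, 50 miRNAs were higher and 28 lower. The part of these lists in the other differences was otherwise not tested.

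The hepatocyte and muscle lists behaved otherwise. Of the 5 hepatocyte miRNAs, miR-122-5p (log2 ratio 5.96, standard error 0.56), miR-148a-3p (7.69, 0.88) and miR-101a-3p (6.89, 2.16) took a larger share in EVs. miR-101a-3p had only 82 and 1 counts in cells, with 390 and 118 in EVs. Its call was lost when cell replicate 2 or either EV replicate was left out. The call was also lost with the replicate block and in the fit of the 4 shCTR libraries alone. miR-194-5p took a smaller share (-1.86, 0.11), and since it was the most abundant of the 5 the list fell from 2.86% and 2.51% of the counts in cells to 1.32% and 1.00% in EVs. miR-192-5p had 1058 and 62 counts in the EV libraries, which differed widely from each other (-0.73, 1.13). Without EV shCTR replicate 1 its log2 ratio was -3.61 and passed the test, and without replicate 2 it was 0.16. The muscle miRNA miR-206-3p was present in these hepatocytes, with 1211 and 1494 CPM, and fell to 125 and 179 CPM in EVs, with a log2 ratio of -3.15 (standard error 0.54). The other tested member of the muscle list, miR-1a-3p, went the other way with a log2 ratio of 2.73, which did not pass the test.

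**Figure D3:**
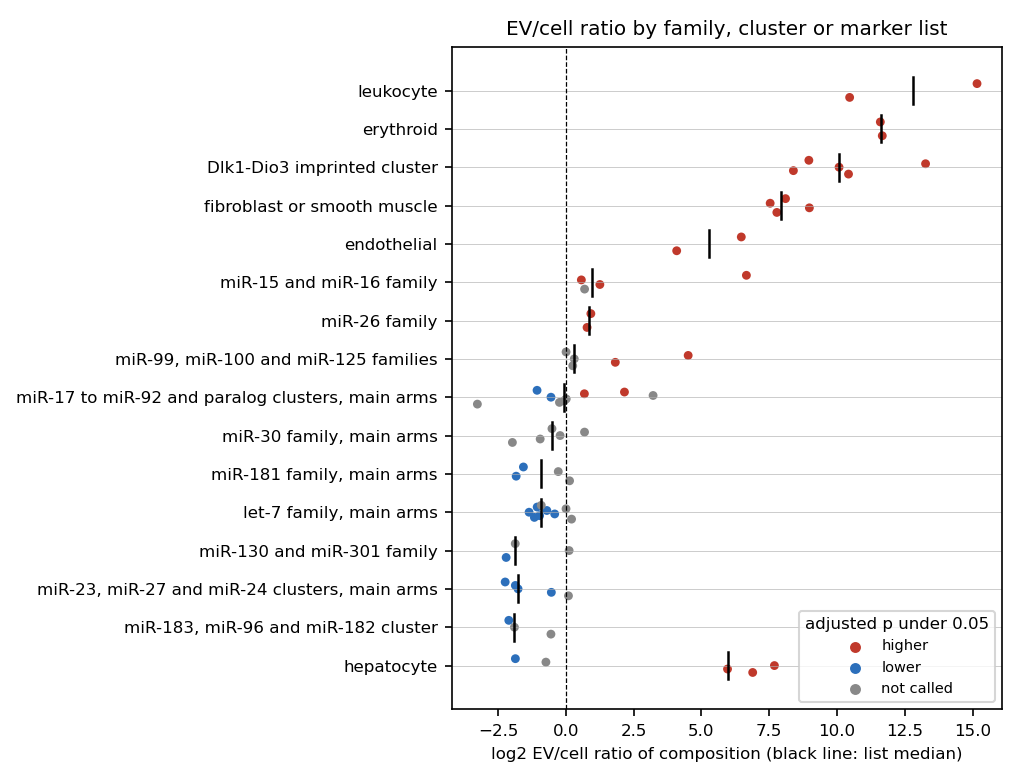
Log2 EV/cell ratio of composition (horizontal) for the tested members of 16 lists of families, clusters or cell type markers, coloured by the call at an adjusted p under 0.05, with the list median as a black line; fitted values of miRNAs with a cell library at 0, such as miR-223-3p and miR-379-5p, depend on the prior count. The leukocyte, erythroid, Dlk1-Dio3, fibroblast or smooth muscle and endothelial lists lie entirely to the right of 0, while the let-7 family, the miR-23, miR-27 and miR-24 clusters, the miR-130 and miR-301 family and the miR-183, miR-96 and miR-182 cluster have medians to the left of it.

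Further miRNAs had EV reads and no cell read, and the filter on cell reads left all of them out of the test. There were 26, of which 19 belong to the Dlk1-Dio3 list, and 13 of the 26 were read in both EV libraries. miR-451a, an erythroid miRNA processed without Dicer, had 4430 and 3667 counts in EVs. Against a floor of 3 counts in each cell library, its CPM was at least 26556-fold higher in EVs. miR-142a-3p, found in all blood cell lineages, had 2157 and 1274 counts and was at least 11052-fold higher. From the Dlk1-Dio3 cluster, miR-487b-3p had 631 and 798 counts and was at least 4795-fold higher, and miR-433-3p had 1189 and 244 counts and was at least 4410-fold higher. All 26 together were 1.69% and 1.43% of the EV counts. The cell libraries, in which they were not found, were the deeper ones.

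Among the miRNAs of lower share were many of the most abundant cell miRNAs. miR-24-3p, second in the cells, fell from 69748 and 66334 CPM to 18514 and 21664 CPM in EVs (log2 ratio -1.76, standard error 0.10). miR-21a-5p, a miRNA that is induced in injured liver, fell from 45090 and 39285 CPM to 7200 and 8545 CPM (log2 ratio -2.42, standard error 0.15, adjusted p = 5.94e-05, edgeR). miR-130a-3p fell from 42057 and 38341 CPM to 8117 and 9381 CPM (log2 ratio -2.20, standard error 0.24). The EV libraries of these miRNAs lay below both cell libraries with no overlap, as for 63 of the 180 tested (35.0%). miR-27a-3p and miR-27b-3p had log2 ratios of -1.86 (standard error 0.25) and -2.24 (standard error 0.15). miR-103-3p, encoded in introns of Pank2 and Pank3, fell by 0.68 on the log2 scale (standard error 0.07). Relative to the spike-in, the log2 level ratio was -6.75 for miR-24-3p and -7.41 for miR-21a-5p.

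Low ratios were also found among miRNAs of medium abundance. miR-872-5p, from an intron of Ift74 on the plus strand at chr4:94665167-94665187, had 29629 and 25767 counts in cells and 99 and 176 counts in EVs, a log2 ratio of -3.29 (standard error 0.52, adjusted p = 0.00433, edgeR). miR-196b-5p, encoded in an exon of Hoxa9, had 89894 and 91758 counts in cells and 819 and 1063 in EVs (log2 ratio -2.26, standard error 0.25). miR-324-5p had a log2 ratio of -2.21 (standard error 0.19), and miR-34a-5p, a target of p53, had -2.12 (standard error 0.38).

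Counts of called members in the families stand against 23.9% higher and 17.8% lower over all tested miRNAs. Of the 9 let-7 members with the seed GAGGUAG, which repress Lin28 and Ras genes, 6 took a smaller share in EVs and none a larger one, with a median log2 ratio of -0.91. The family fell from 24.1% and 25.7% of the counts in cells to 18.5% and 17.0% in EVs. let-7e-5p (log2 ratio -1.35, standard error 0.13) and let-7b-5p (-1.16, 0.09) had the lowest values, while let-7a-5p (0.21, 0.12) and let-7g-5p (0.01, 0.12) did not pass the test and were at -0.0019 and -0.21 with TMM factors. let-7 members differ by few bases, so reads may be shared between them. The miR-23, miR-27 and miR-24 clusters fell from 16.8% and 16.6% to 6.97% and 7.52%, with 4 of 5 main arms lower and miR-23a-3p not passing the test (log2 ratio 0.10, standard error 0.09, and -0.12 with TMM factors). In the family of miR-15, miR-16, miR-195 and miR-497 3 of 4 tested members were higher and none lower, and the family rose from 9.36% and 9.03% to 14.2% and 14.4%. In the miR-181 family, miR-181b-5p (-1.83, 0.30) and miR-181d-5p (-1.56, 0.14) were lower, whereas miR-181a-5p was at 0.14 (standard error 0.16) and at -0.080 with TMM factors, which did not pass. The miR-17 to miR-92 cluster and its paralogs were mixed, with 2 of 9 tested main arms higher (miR-92a-3p and miR-25-3p) and 2 lower (miR-93-5p and miR-20a-5p), although miR-25-3p and miR-93-5p come from the same transcript in Mcm7. The call of miR-25-3p was lost with median-of-ratios factors (0.48), and that of miR-20a-5p without cell shCTR replicate 2 and without EV shCTR replicate 2, among others.

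The calls were also grouped by seed. There were 22 seeds shared by at least 2 tested miRNAs, 66 miRNAs in all. Calls in both directions could be seen only for the 8 seeds with at least 2 called members, 1 of them the identical miR-199a-3p and miR-199b-3p, and in these 8 the called members had the same direction. From the cluster in Mcm7 and its paralogs, miR-92a-3p and miR-25-3p share the seed AUUGCAC, and miR-93-5p and miR-20a-5p share AAAGUGC. Members of a seed family are similar in sequence beyond the seed and can share reads, so these are not independent measurements.

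The arms of the hairpins were compared within libraries, where the ratio of the arms does not depend on the scaling. In all, 5p arms took 68.5% and 69.4% of the cell counts and 78.3% and 78.8% of the EV counts. Without the miR-486 copies the 5p share of the EV counts was 76.1% and 76.6%. Counted by miRNA the arms differed the other way, with a median log2 ratio of -0.05 over 106 tested 5p arms (24 higher, 21 lower) and 0.51 over 70 tested 3p arms (19 higher, 11 lower). Of 21 hairpins with both arms tested, the balance differed between EVs and cells for 3 (14.3%) at an adjusted p under 0.05 (edgeR's diffSpliceDGE with Benjamini-Hochberg adjustment), namely let-7d, miR-126a and miR-23a, each with an adjusted p of 0.0261. The let-7d and miR-23a arms are given here to show which strand is meant, with miR-126a-3p.
let-7d-5p: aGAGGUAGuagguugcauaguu
let-7d-3p: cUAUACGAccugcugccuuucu
miR-23a-5p: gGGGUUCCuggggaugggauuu
miR-23a-3p: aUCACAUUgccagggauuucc
miR-126a-3p: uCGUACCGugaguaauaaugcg

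let-7d-5p is the arm of the let-7 family, and it had 311991 and 295178 counts in cells and 13711 and 9696 in EVs. The opposite arm, let-7d-3p, had 533 and 694 counts in cells and 601 and 169 counts in EVs, so that the 5p share of the hairpin went from 99.8% and 99.8% to 95.8% and 98.3%. For miR-126a the 5p arm gained, from 22.3% and 16.9% of the reads in cells to 40.9% and 64.1% in EVs. For miR-23a, the 5p arm had 95 and 75 counts in cells and none in EVs, where only 4.77 and 3.84 counts would be reached at an unchanged share. That call rests on a few missing reads, fewer than the EV libraries usually held. miR-23a-5p entered the test through EV shPCBP2 reads. Without an EV shCTR read the balance could only move towards the 3p arm, so the direction of the miR-23a call was fixed in advance and is not a result. The number of hairpins called depended on single libraries, with 0 calls without either cell replicate and 1 without EV shCTR replicate 2. miR-140 had a shift of a similar size to that of let-7d that did not pass, with 92.2% and 89.8% of its reads on the 5p arm in cells and 51.2% and 32.8% in EVs (adjusted p = 0.0619, edgeR's diffSpliceDGE with Benjamini-Hochberg adjustment).

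**Figure D4:**
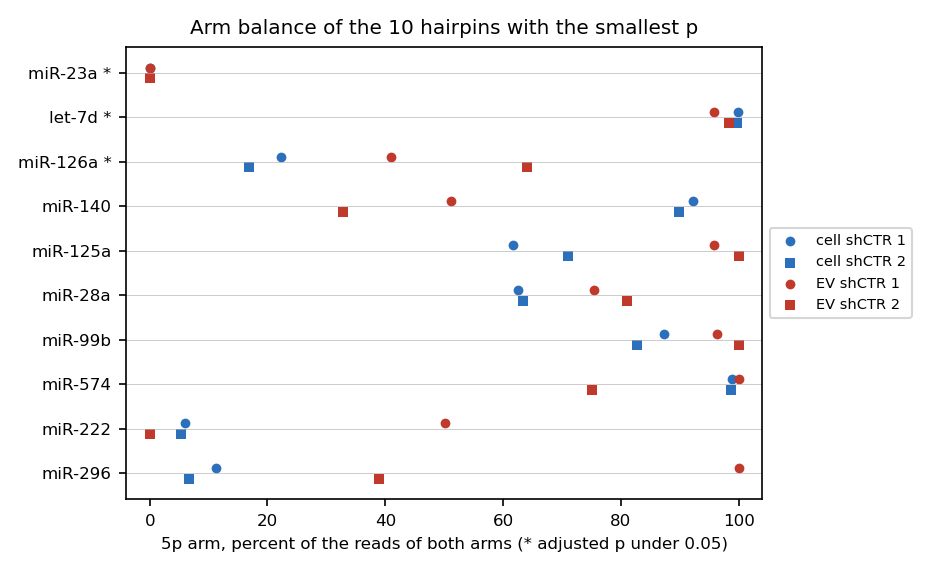
Share of the reads of a hairpin that fell on its 5p arm (horizontal, percent) in each of the 4 shCTR libraries, for the 10 hairpins with the smallest p of the arm test. Cell libraries (blue) and EV libraries (red) are apart for miR-126a and miR-140, while for let-7d and miR-23a all libraries lie close to the edge of the axis.

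Opposite arms are those with fewer cell reads than their partner. Where at least 50 EV reads would be reached at an unchanged share, 5 of 97 main arms had no read in either EV library and 3 of 17 opposite arms had none. The median observed log2 EV/cell ratio was -0.45 for these main arms and -1.72 for these opposite arms, a description with no test. With the test opened to every miRNA with at least 10 counts in 2 of the 4 shCTR libraries, the arm balance differed for 36 of 96 hairpins (37.5%). In 31 of the 36 the arm less abundant in the cells had no EV read, and in 31 the balance moved towards the main arm. An arm could enter this test through the cell libraries alone. Without an EV read it could only move the balance towards its partner, so that direction was fixed in advance and is not a result. miR-27a-5p had 3476 and 2941 counts in cells and no EV read, although 180 and 145 were to be reached at an unchanged share. It was at least 53.6-fold lower in EVs on a floor of 3 counts in each library, but only 2.27-fold on a floor of 71 counts, the lowest decile of the EV counts above 0, chosen after seeing the data. Its partner miR-27a-3p was lower by 1.86 on the log2 scale, so a difference between these arms depends on the floor. For miR-31, miR-191, miR-221 and let-7e, the opposite arm likewise had no EV read. At an unchanged share 167 and 134 EV counts were to be reached for miR-221-5p. Only 35.8 and 28.8 were to be reached for miR-31-3p, 14.8 and 11.9 for let-7e-3p and 8.85 and 7.12 for miR-191-3p, all below the floor of 71.

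Detection in EVs was less frequent the lower the abundance in the cells. All 24 miRNAs with a mean of at least 100000 counts in the cells were read in both EV libraries, and 51 of 54 with 10000 to 100000 counts were. Between 1000 and 10000 counts, 13 of 63 (20.6%) had no EV read, and between 100 and 1000 counts 76 of 116 (65.5%) had none. In total 414 miRNAs had cell reads and no EV read, 205 were read in both compartments and 26 in EVs alone. The cell libraries detected 561 and 466 miRNAs, or 430 and 406 expected at the 553556 mouse reads of the shallowest library, against 202 and 187 in the EV libraries.

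**Figure D5:**
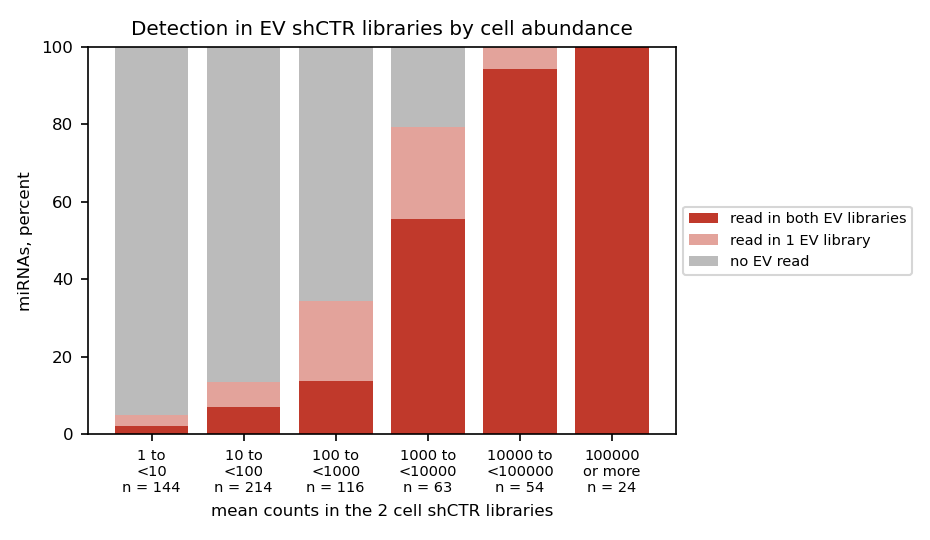
Percent of miRNAs that were read in both, in 1 or in neither EV shCTR library (vertical), by their mean counts in the cell shCTR libraries (horizontal, with the number of miRNAs in each class). The share with no EV read is 95.1% in the lowest class, 20.6% between 1000 and 10000 counts and 0 in the highest classes.

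The EV counts lacked low values. Only 4 and 8 of the counts above 0 in the EV libraries (1.98% and 4.28%) lay between 1 and 40, against 235 and 137 (41.9% and 29.4%) in the cell libraries. There were 73 miRNAs read in a single EV library, with a median of 106 counts and up to 383. Among the 124 miRNAs read in all 4 libraries that have a sequence, the log2 ratio fell with cell CPM (r = -0.73, a description, with cell CPM in both measures). High ratios of miRNAs with few cell reads and the absence of EV reads are to be read beside this, and its part in them was not tested.

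The most abundant cell miRNAs without any EV read were miR-101b-3p, miR-27a-5p, miR-221-5p, miR-29b-1-5p, miR-2137, miR-32-3p, miR-450b-3p, miR-24-2-5p, miR-345-3p and miR-92a-1-5p. miR-101b-3p had 3313 and 3258 counts in cells, which correspond to 185 and 149 EV counts at an unchanged share, and was at least 55.1-fold lower in EVs on a floor of 3 counts in each EV library. miR-345-3p had 1515 and 1281 counts and was at least 23.4-fold lower. Since EV counts seldom lay below 40, the bounds were also taken with the same floor of 71 counts. They were then 2.33-fold for miR-101b-3p and 0.987-fold, which is no decrease, for miR-345-3p. miR-345-3p was also called lower in the main composition test, which it entered through EV shPCBP2 reads alone, so that direction was fixed by the filter. In the test opened to miRNAs with at least 10 counts in 2 shCTR libraries, 143 of 404 (35.4%) were lower and 56 (13.9%) higher, and 112 of the 143 had no EV read. A miRNA could enter this test through the cell libraries alone, and without an EV read it could only be called lower. The direction of these 112 calls was thus fixed by the filter. These 112 held only 0.290% and 0.267% of the cell counts. All 5 miRNAs of the miR-200 family, which maintains the epithelial state, were among those without EV reads, with miR-200b-3p highest at 962 and 869 cell counts. Of all miRNAs with 100 to 1000 cell counts 65.5% had no EV read, and at the floor of 71 counts no decrease was shown for miR-200b-3p.

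Further miRNAs on which the study worked with AUUA, AUUG or other short motifs were spread over these classes. miR-155-5p, which acts in inflammation, had 9294 and 10334 counts in cells and 260 and 354 in EVs, a log2 ratio of -0.67 (standard error 0.46) that did not pass the test. Its partner miR-155-3p had 11 and 0 counts in cells and none in EVs, and an EV/cell difference was not detectable at this depth. miR-31-3p had 835 and 450 counts in cells and no EV read, where 35.8 and 28.8 were to be reached at an unchanged share, below the lowest decile of 71 of the EV counts above 0. miR-26b-3p and miR-3084-5p had no EV read either, with fewer than 10 to be reached in each EV library. On a floor of 71 counts no decrease was shown for these 3 miRNAs. miR-195a-5p took a larger share in EVs (log2 ratio 6.66, standard error 1.28), a call that was lost without either cell replicate. miR-365-2-5p had 184 and 153 counts in cells and 209 and 349 in EVs (log2 ratio 5.08, standard error 2.48), and miR-421-3p had a log2 ratio of 0.99 (standard error 0.86), neither of which passed the test. miR-365-2-5p did pass with DESeq2 and in the fit of the 4 shCTR libraries alone, with an adjusted p of 0.0133 by DESeq2 and 0.0172 by edgeR.

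Short motifs were counted on the mature strand. AUUA was in none and AUUG in 25 of the 156 tested miRNAs with a sequence (16.0%), against 20 (3.53%) and 60 (10.6%) of the 566 with a read. The 24 tested miRNAs without a sequence were not searched. miR-421-3p is among them, and the paper lists it with the miRNAs that carry AUUA or AUUG, so these counts can miss carriers. AUUG was in 6 of 30 miRNAs of lower share (20.0%) and in 12 of 92 that were not called (13.0%). Among the miRNAs of higher share AUUG was in 7 of 34 (20.6%), close to the part in those of lower share. A sequence was found for only 34 of these 43 (79.1%), under the 80% set as a minimum, so this count is a description only. The median length was 22 bases in both sets of 30 and 92, and the median GC content 45.5% and 47.8%. GC content correlated with the log2 ratio with r = 0.16 over 124 miRNAs and length with r = -0.13, as descriptions.

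The EV/cell composition ratio of shCTR was last set against that of shPCBP2, in which the RNA-binding protein PCBP2 is silenced. The ratio differed for 6 of 180 miRNAs (3.33%) at an adjusted p under 0.05 (interaction term of the edgeR fit, Benjamini-Hochberg adjustment), being higher in shCTR for miR-872-5p and miR-129-2-3p and lower for miR-345-3p, miR-181a-5p and both miR-486 copies. This count was 0 without cell shCTR replicate 1 and 15 without EV shCTR replicate 1. miR-872-5p, with 99 and 176 EV counts in shCTR, had none in EV shPCBP2, while miR-345-3p, with none in EV shCTR, had 126 and 73 counts in EV shPCBP2. miR-129-2-3p likewise had no read in EV shPCBP2. These miRNAs passed the filter on EV reads through a single shRNA group. A group without EV reads could only have the lower ratio, so the direction of their differences was fixed in advance and is not a result. For all 6 miRNAs the cell counts were lower in shPCBP2 than in shCTR, so none of these ratios differed through the EV counts alone. For miR-872-5p they were 15851 and 18554 in shPCBP2 against 29629 and 25767 in shCTR, and for miR-345-3p 689 and 1031 against 1515 and 1281.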

How the data were processed

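The authors sequenced small RNA (NEXTFLEX small RNA kit, NovaSeq), trimmed the reads, aligned them with NovoAlign to miRBase hairpins and counted them with mirPRo, and the deposited values are raw counts per mature miRNA, those above 999999 to 6 significant digits. Tables were read in Python 3.11.15 and tested in R 4.3.3 with edgeR 4.0.16. All 8 libraries were fitted as 4 groups with the quasi-likelihood test, the contrast was EV shCTR minus cell shCTR, and p-values were adjusted over all miRNAs tested (Benjamini-Hochberg, threshold 0.05). Library size was the total of mouse miRNA counts for composition and proportional to the cel-miR-39-3p count for level. Following the study's filter, miRNAs with at least 1 read in 2 cell and 2 EV libraries were kept. Standard errors, derived from the F statistic, are approximate. Arms were tested with diffSpliceDGE. A floor of 3 counts per library gave bounds, and exact intervals (95%) and floors cover counting error only. In simulated counts with 200 of 900 features changed by 3 on the log2 scale at the fitted dispersion of the composition contrast, 79 were recovered, with 2 false calls among 700.

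Sequences and coordinates came from RefSeq on GRCm38.p6 and host genes from the GENCODE annotation. Members and lists were chosen with earlier results of these data known, and miR-342 and miR-668 were later removed from lists where they did not belong. Named by rule were the 10 highest and 10 lowest called ratios among miRNAs read in all 4 libraries, the 10 of largest share in each compartment, all with a higher level, both arms of the 10 hairpins of smallest p, the 10 most abundant without EV reads, those the study assayed and leading list members. Others, such as miR-423-5p, miR-320-3p and the miRNAs read in EVs alone, were chosen after their values were seen. Other scalings, filters, DESeq2 1.42.0, a replicate block and leaving out each library were tried.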

Additional observations from a re-analysis of the deposited data

Results flagged for a closer look

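The composition EV/cell ratio differed between shCTR and shPCBP2 for 6 miRNAs by the test of the difference itself (interaction term of the edgeR fit, Benjamini-Hochberg adjustment). miR-872-5p was read in EV shCTR (99 and 176 counts) but not in EV shPCBP2, a ratio that was higher in shCTR by at least 30.9-fold (adjusted p = 0.0185). miR-129-2-3p had 262 and 179 counts in EV shCTR and none in EV shPCBP2, with a ratio at least 11.6-fold higher in shCTR (adjusted p = 0.0494). miR-345-3p, without a read in EV shCTR, had 126 and 73 counts in the EVs of shPCBP2, with a ratio at least 50.8-fold lower in shCTR (adjusted p = 0.0494). miR-872-5p, miR-129-2-3p and miR-345-3p passed the filter on EV reads through a single shRNA group. The group without EV reads could only have the lower ratio, so the direction of these differences was fixed in advance and is not a result. The log2 difference of the ratios, shCTR minus shPCBP2, was -1.56 for miR-181a-5p (standard error 0.23, adjusted p = 0.0219), -1.19 for miR-486a-5p (standard error 0.15, adjusted p = 0.0185) and -1.25 for miR-486b-5p (standard error 0.18, adjusted p = 0.0208). All 6 miRNAs also had lower counts in the shPCBP2 cells than in the shCTR cells, for miR-129-2-3p 722 and 874 against 5802 and 4625. With a floor of 71 counts, the lowest decile of the EV counts above 0 and chosen after seeing the data, the bounds were 1.31-fold for miR-872-5p, 2.15-fold for miR-345-3p and 0.491-fold, which is no difference, for miR-129-2-3p.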

How the results depend on the processing

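Of the composition results, the number of miRNAs of higher share stayed within 1.5 times of 43 under every alternative run, from 33 to 57, and that of lower share was 124 with no filter and 143 with at least 10 counts in 2 shCTR libraries, where miRNAs without EV reads are tested. The split of 43 higher and 32 lower was 42 and 40 with TMM factors, 40 and 36 with median-of-ratios factors and 50 and 28 with the marker lists left out of the totals. The numbers of higher and lower levels, 12 and 107, were 42 and 40 with TMM factors and 40 and 36 with median-of-ratios factors, which by construction remove the shift measured by the spike-in, 23 and 278 with no filter, and 23 and 285 with at least 10 counts in 2 shCTR libraries. Leaving out a library gave from 5 to 11 higher levels and from 97 to 116 lower levels. Arm calls were 27 with no filter and 36 with at least 10 counts in 2 shCTR libraries, and from 0 to 3 when a library was left out. Ratios that differed from shPCBP2 numbered 13 with TMM factors, 2 with median-of-ratios factors, 3 with no filter, 10 with at least 10 counts in each shCTR library, 24 with DESeq2, and from 0 to 15 when a library was left out. The cause of these changes was not tested. DESeq2 gave no arm test, and the fit of the 4 shCTR libraries alone no comparison with shPCBP2. Over all alternatives of the named log2 composition ratios, 835 values kept their direction and side of the threshold, 27 lost the call and 5 gained it. For the named higher levels 129 kept it and 25 lost it. These values include TMM and median-of-ratios factors, which replace the spike-in scaling and so give no level. Most of the losses were for miR-143-3p, miR-145a-5p, miR-199a-3p, miR-199b-3p and miR-214-3p.

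The main fit took cell and EV libraries as unpaired. Deviations of same-numbered cell and EV libraries correlated with r = -0.02 in shCTR and 0.18 in shPCBP2 over 113 miRNAs. With 2 replicates a group, such a correlation cannot show whether libraries of the same number came from the same culture. Replicate numbers were those of the sample titles, while the deposited columns number the shPCBP2 cells 1 and 3 and the shPCBP2 EVs 2 and 3, so that 1 of these 2 pairs shares no number there. With the replicate block there were 35 higher and 25 lower shares, 6 higher and 100 lower levels, 0 arm calls and 0 ratios that differed from shPCBP2.

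Of the miRNAs named with a ratio, those whose sign changed had not passed the test. let-7a-5p was at -0.0019 with TMM and -0.00103 with median-of-ratios factors. let-7g-5p was at -0.21 with both and at -0.19 without the 10 most abundant miRNAs in the totals, and leaving out a library gave from -0.113 to 0.12. miR-23a-3p was at -0.123, -0.111 and -0.103 and miR-181a-5p at -0.080, -0.073 and -0.0625 under the same 3 scalings. miR-192-5p ran from -3.61 without EV shCTR replicate 1, where it passed the test, to 0.16 without EV shCTR replicate 2. The analysis is limited by 2 libraries a group, by EV libraries of at most 687592 mouse reads, and by near-identical miRNAs that share reads.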
